A study of Mus musculus with 12 samples.

Results

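Liver gene expression was examined for the interaction of genotype and time of day, that is, for genes whose change between circadian time 0 h (CT0) and 12 h (CT12) differed between wild-type (WT) livers and livers without a working Bmal1 gene (KO). The contrast was the KO minus WT difference at CT12 minus the same difference at CT0, on log2(RPKM + 1), where RPKM is a read count scaled to transcript length and library depth. All 12 RNA libraries of the series entered, 3 each of WT at CT0, WT at CT12, KO at CT0 and KO at CT12. A gene was tested if its mean reached 1 RPKM in any group. Of the 10799 genes tested, 161 had a called interaction, where called means a limma p-value adjusted over those genes under 0.05. Outside a list of clock genes there were 151 of them, and these are the main subject.

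The labels give C57BL/6 mice 8 weeks old, where the study's methods speak of a C57BL/6J background and of ages from 8 weeks upward. The mice spent their last days in constant darkness. According to the study's methods, WT mice were homozygous for floxed Bmal1, and the KO genotype added CRE recombinase driven by a promoter that acts in liver. No CRE is stated for WT, so an effect of the recombinase and of the lost gene cannot be told apart. The titles use CT and another label field uses ZT for the same 2 times, and the label text states fewer mice per group than the titles give replicates, whereas the methods speak of as many mice per genotype as a group has replicates. Which libraries came from separate mice is therefore not settled, and p-values measure the spread between these libraries. Depth recovered from the values was 11460000 to 19020000 reads per library, with the highest depths in WT at CT0, whose part in the calls was not tested, and 1 RPKM on a transcript of 1 kilobase stood for 11.5 to 19.0 reads. Replicates of a group correlated with Pearson's r of 0.9804 to 0.9902 across genes, which are not independent replicates, and each library lay with its group on the first 2 principal components (35.6% and 16.5% of the variance).

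BMAL1, encoded by Arntl, pairs with CLOCK and activates genes through E-box sequences. Among its targets are the PER and CRY repressors that close the feedback loop, the D-box factors such as DBP, and the REV-ERB repressors, which compete with ROR activators at ROR elements. In the liver this network times the synthesis of cholesterol, bile acids and glycogen, the handling of drugs by cytochromes P450, and the supply of NAD. With 2 times, a difference between them says nothing of a peak time, of amplitude or of period, and food intake and hormones also follow the time of day.

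The commonest pattern was a time change that was present in WT and did not pass the threshold in KO. Interactions were called for 1.49% of the genes tested, 116 of them positive (1.07%) and 45 negative (0.417%). The split between signs depended on the scaling. Positive terms made up 72% of the calls, 59.7% with quantile normalization (144 calls) and 59.5% with cyclic loess normalization (148 calls). Without adjustment of the p-values 1324 genes (12.3%) were under 0.05. A size of at least 1 in addition left 89 genes (0.824%). Leaving out 1 library gave 87 to 146 calls. The count fell more than 1.5 times without WT CT0 replicate 1 (105 calls), 2 (87) or 3 (105), WT CT12 replicate 1 (90) or 3 (94), KO CT0 replicate 3 (105), or KO CT12 replicate 2 (107) or 3 (95).

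Each of the 151 called genes outside the clock list was placed by its 2 time changes. In WT, 1252 genes (11.6%) changed with time, 401 upward (3.71%) and 851 downward (7.88%). In KO, 262 genes (2.43%) did, 119 upward (1.1%) and 143 downward (1.32%). A change that passed in WT and not in KO was termed lost, and 96 falls and 34 rises were lost. The change was reversed for 3 genes that passed in both genotypes in opposite directions, and gained for 7 that passed in KO alone. A smaller change of the same sign remained in KO for 6 genes, a larger one was seen for 1, and 4 genes passed in neither genotype.

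A time change that passed in 1 genotype alone did not imply a called interaction. Of the 1252 genes that changed with time in WT, 1103 did not pass in KO, and the interaction was called for 138 of these and not for the other 965. Likewise, 113 genes passed in KO and not in WT, with an interaction call for 7. Both genotypes passed for 149 genes, with an interaction call for 12. Among the 161 called genes, the WT and KO changes had opposite signs for 89, but both were at least 0.3 in size for 29 of them only. The share of opposite signs over all genes tested was not counted, so these counts do not set the called genes apart. At the edge of the threshold, Tmem67 (interaction 0.74, adjusted p = 0.0489) and Aasdhppt (0.62, adjusted p = 0.0498) were just inside, and Shf (1.28, adjusted p = 0.0502) and Ldha (0.77, adjusted p = 0.0505) were just outside.

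**Figure D1:**
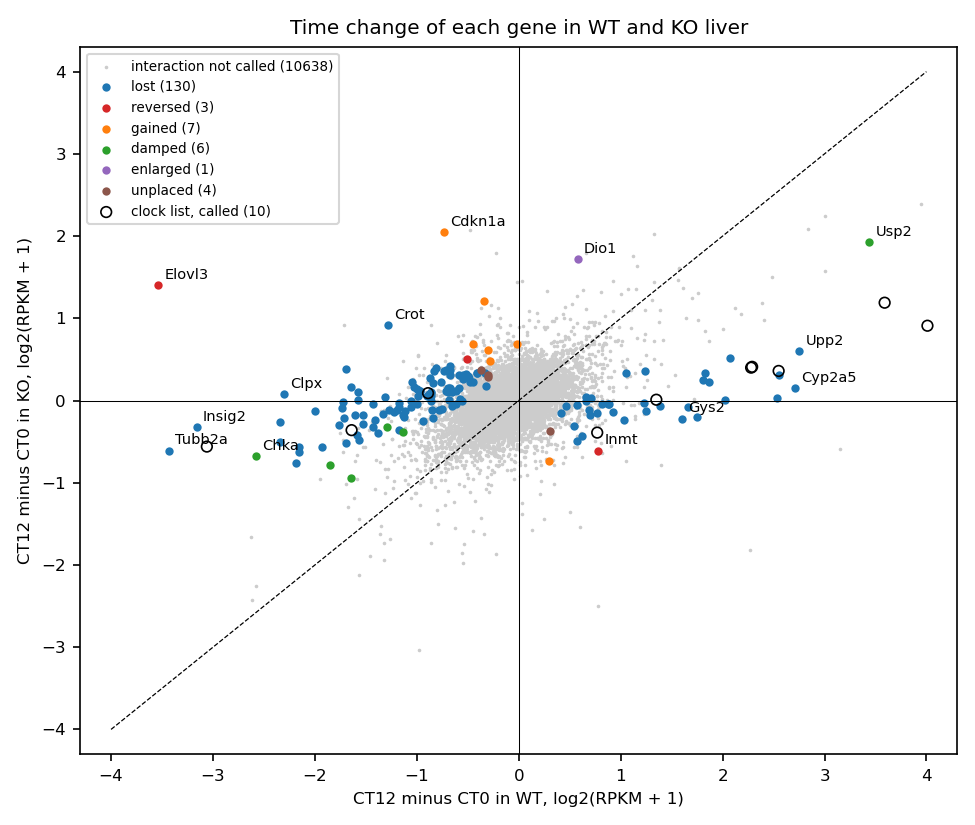
Change from CT0 to CT12 of each of the tested genes in WT (horizontal axis) and KO (vertical axis), as differences of log2(RPKM + 1). Grey points are the 10638 genes with no called interaction, coloured points the classes outside the clock list and open circles the 10 called clock genes, and the dashed line marks equal change. Most coloured points lie along the horizontal line of no change in KO. Elovl3 lies above that line far to the left (-3.54 in WT, 1.40 in KO), and Cdkn1a lies higher but nearer the middle (-0.73 in WT, 2.05 in KO).

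In their medians the lost changes had a common shape, but single members spread around it. The KO change ran from -0.76 to 0.92 for the lost falls and from -0.49 to 0.60 for the lost rises. The KO libraries of the 2 times did not overlap for 29 of the 96 falls and 10 of the 34 rises, against 23.2% of all genes. For the 96 lost falls the median change was -0.97 in WT and 0.03 in KO, and the median genotype difference was 0.05 at CT0 and 1.08 at CT12. KO was higher than WT at CT12 by a called difference in 93 of the 96 (background 6.97% of all genes) and at CT0 in 4 (1.02%, of 1.86% called in either direction). For the 34 lost rises the median change was 1.04 in WT and -0.04 in KO, and KO was lower than WT at CT12 in 32 (3.49%) and at CT0 in 2 (0.843%), with 2 more higher at CT0. The KO means at both times lay nearer the WT level at CT0 than that at CT12 in 89 of the 96 falls and 31 of the 34 rises. These shares follow in part from how the class is defined, so they describe the members and test nothing.

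Arntl, the targeted gene, lies on chromosome 7, 120350979 to 120457636 on the plus strand (NCBIM37, the build of all gene positions here). It had 16.4, 15.7 and 15.7 RPKM in the WT libraries at CT0 and 1.26, 0.68 and 1.21 at CT12. Livers of KO mice had 5.92, 5.73 and 7.45 at CT0 and 4.37, 3.59 and 4.01 at CT12. The KO libraries thus lay below WT at CT0 and above WT at CT12, without overlap at either time. Its fall of -3.06 in WT was -0.56 in KO, and the interaction was 2.50 (standard error 0.18, adjusted p = 7.2e-05). The row covers the whole transcript, so it does not show the deleted exons, and it is not a measure of deletion.

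Of 23 clock genes tested, 10 had a called interaction, 3 positive and 7 negative, against 1.49% of all genes. Next to Arntl the largest were Gm129, Dbp and Per3. Gm129, also known as Ciart, a repressor of CLOCK and BMAL1, had 14.5, 15.2 and 21.2 RPKM in WT at CT12 and 0.373, 3.45 and 1.57 in KO, against no more than 2 reads in any library at CT0. Dbp, a D-box activator, rose from 0.661, 1.25 and 1.18 RPKM to 21.7, 33.4 and 17.3 in WT and from 1.51, 1.84 and 1.63 to 3.29, 8.11 and 4.66 in KO, but 56.2% of its row is shared with exons of Sphk2. Per3 rose from 0.309, 0.386 and 0.326 RPKM to 6.21, 9.22 and 5.57 in WT and lay at 1.45, 1.23 and 0.785 and 1.63, 1.94 and 1.67 in KO. In all 3 the WT libraries at CT12 were above every KO library. Their interactions were -3.11 (adjusted p = 0.0053), -2.41 (0.0078) and -2.19 (0.00073).

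Among the lost falls, Insig2, which holds the sterol sensor complex of SREBP in the endoplasmic reticulum, stood first. It had 173, 171 and 205 RPKM in WT at CT0 and 18.5, 14.0 and 28.1 at CT12. The KO libraries had 229, 232 and 286 at CT0 and 152, 184 and 281 at CT12. Every KO library was above the WT libraries at CT12, and the 2 KO groups overlapped. The fall in WT was -3.16 (standard error 0.24, adjusted p = 9.7e-06), the change in KO -0.32 (adjusted p = 0.5) and the interaction 2.85 (standard error 0.34, adjusted p = 0.0019). The row is a transcript of 204 bases (chromosome 1, 123200930 to 123229166 on the minus strand), and the second row of the gene gave 2.54 (adjusted p = 0.0022). Insig2 was the 1 called member of 26 tested genes of cholesterol synthesis and uptake, against 1.49% of all genes. The median interaction of these 26 was 0.21, against 0.067 over all genes. In that list 3 genes fell with time in WT and 0 in KO, against 7.88% and 1.32% of all genes, so both counts were near the background.

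Tubb2a, a beta-tubulin of microtubules (chromosome 13, 34166170 to 34169877 on the minus strand), had 80.4, 77.7 and 50.9 RPKM in WT at CT0 and 4.66, 4.26 and 7.86 at CT12. Its KO libraries had 124, 55.5 and 63.0 at CT0 and 47.5, 45.4 and 56.1 at CT12. Replicate 1 was the high KO library at CT0, and no KO library came near the WT level at CT12. The KO change of -0.61 did not pass (adjusted p = 0.27), but with classes set by a size of 0.5 it counted as a smaller fall. The interaction was 2.83 (standard error 0.41, adjusted p = 0.0051). Beta-tubulin genes resemble each other, and how reads were divided among them is not known. Of 23 genes of the actin and tubulin cytoskeleton, 16 fell with time in WT, against 7.88% of all genes, and 5 fell in KO, against 1.32%. The median change of this list was -0.59 in WT and -0.48 in KO. Tubb2a was its 1 called interaction, against 1.49% of all genes.

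Clpx, the ATPase subunit of the ClpXP protease of mitochondria, had 153, 176 and 188 RPKM in WT at CT0 and 33.3, 31.0 and 38.2 at CT12. The KO libraries gave 156, 207 and 212 at CT0 and 186, 178 and 245 at CT12. At CT12 the lowest KO library was far above the highest WT library. The interaction was 2.38 (standard error 0.21, adjusted p = 0.00023), from a row of 577 bases (chromosome 9, 65142067 to 65178465 on the plus strand), with 2.26 in the second row. None of the other 15 mitochondrial chaperones and proteases tested was called, against 1.49% of all genes.

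Genes of fuel storage and hormone sensing were also among the lost falls. Ppp1r3c, which targets protein phosphatase 1 to glycogen (chromosome 19, 36806227 to 36811143 on the minus strand), had 30.1, 41.1 and 44.6 RPKM in WT at CT0 and 9.62, 8.14 and 17.3 at CT12, and 27.9, 41.3 and 36.5 and 54.2, 35.1 and 49.8 in KO. Avpr1a, the vasopressin receptor of hepatocytes (chromosome 10, 121885555 to 121890509 on the plus strand), had 18.6, 18.7 and 15.5 and 3.6, 3.88 and 3.41 RPKM in WT, and 12.9, 15.9 and 14.0 and 12.8, 14.7 and 11.5 in KO. In both genes the KO libraries at the 2 times overlapped and lay above WT at CT12. The interactions were 2.07 (standard error 0.36, adjusted p = 0.015) and 1.87 (standard error 0.16, adjusted p = 0.0002).

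Spon2, which encodes a protein of the extracellular matrix (chromosome 5, 33556167 to 33560887 on the minus strand), was at 6.01, 8.63 and 7.06 RPKM in WT at CT0 and at 0.527, 0.70 and 0.60 at CT12, the latter from 19, 23 and 18 reads. Its KO values of 12.6, 12.4 and 11.3 and 6.2, 10.9 and 14.1 were above WT at both times without overlap at either, and the interaction was 2.08 (adjusted p = 0.0055). Ndrg1, a gene induced by stress and hypoxia (chromosome 15, 66760883 to 66801202 on the minus strand), had 16.4, 30.1 and 28.1 and 3.48, 3.44 and 5.03 RPKM in WT, and 34.9, 53.7 and 43.9 and 25.1, 30.3 and 36.8 in KO. The KO change of Ndrg1 was -0.50 and did not pass (adjusted p = 0.25), but with classes set by a size of 0.5 it counted as a smaller fall. The call of its interaction of 1.84 (adjusted p = 0.016) was lost on leaving out WT CT12 replicate 1 (then 1.77, with an adjusted p of 0.053).

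Crot, the peroxisomal carnitine octanoyltransferase (chromosome 5, 8966033 to 8997324 on the minus strand), spread more widely. It had 260.3, 337 and 325 RPKM in WT at CT0 and 118, 104 and 162 at CT12. The KO libraries had 114, 258 and 175 at CT0 and 222, 343 and 462 at CT12, so that the estimated change was 0.92 and did not pass (adjusted p = 0.12). The interaction of 2.20 (standard error 0.43, adjusted p = 0.026) lost its call without WT CT0 replicate 2 or 3, WT CT12 replicate 1 or 2, KO CT0 replicate 3, or KO CT12 replicate 2 or 3, with 1.95 to 2.20 and adjusted p of 0.058 to 0.076. None of 26 tested genes of fatty acid oxidation and ketogenesis was called (limma), against 1.49% of all genes. In this list 4 rose and 2 fell with time in WT, with 1 and 0 in KO. Over all genes 3.71% rose and 7.88% fell in WT, and 1.1% and 1.32% in KO, so the falls and the KO counts were near the background.

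**Figure D2:**
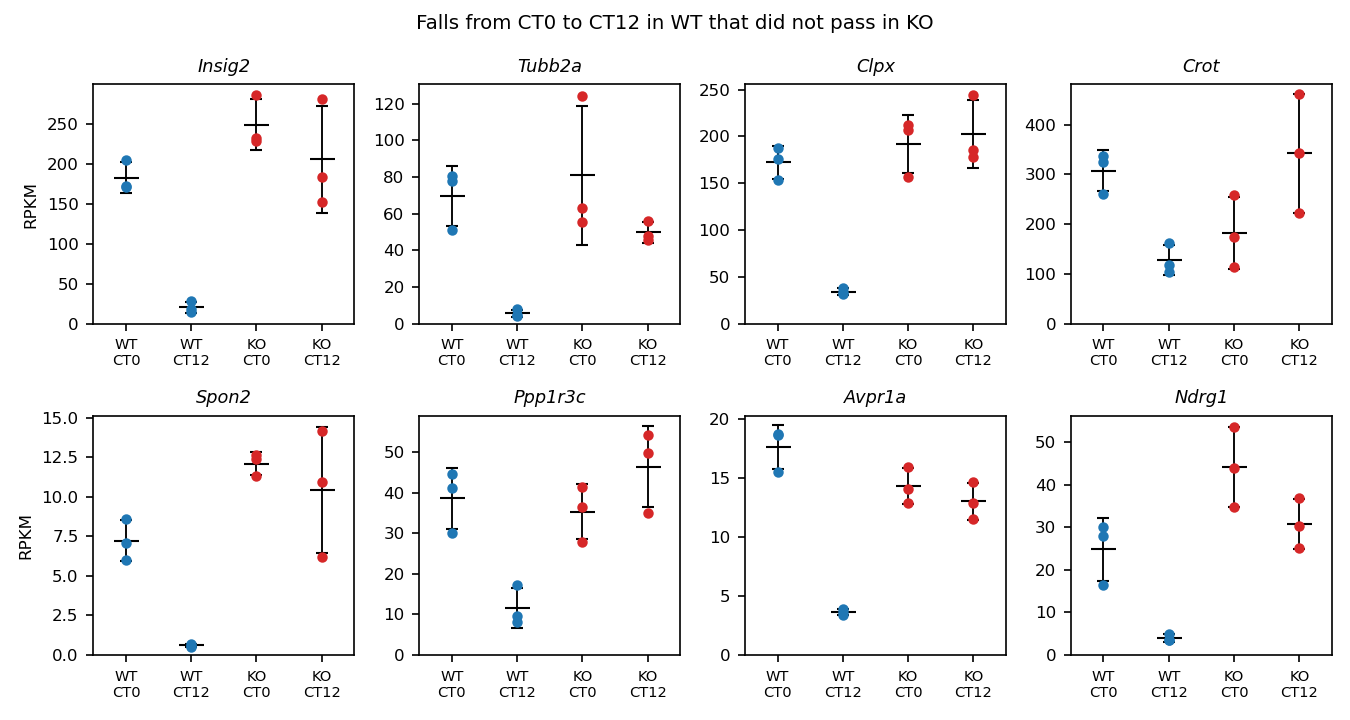
RPKM (vertical axes, from 0, with a scale of its own for each gene) of the 8 named lost falls in the 4 groups on the horizontal axes. Points are libraries, with WT in blue and KO in red, and bars are the mean and SD of 3 libraries. In all 8 genes the WT libraries at CT12 are below every KO library at CT12. The genes were picked by the size of the interaction. Over all genes tested, WT and KO libraries at CT12 do not overlap in 28.8%, in either direction.

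Further lost falls came from the lists of liver functions. Cbs, cystathionine beta-synthase of the route from methionine to cysteine (chromosome 17, 31749568 to 31774144 on the minus strand), went from 236, 194 and 195 RPKM to 88.3, 92.0 and 91.0 in WT and was at 269, 243 and 269 and 242, 243 and 237 in KO. Its KO libraries were above WT at both times, far more so at CT12 (1.40 against 0.33 on the log2 scale), and the interaction was 1.08 (standard error 0.12, adjusted p = 0.0012). It was the 1 called of 29 tested genes of amino acid and urea metabolism, against 1.49% of all genes.

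Abcb11, the bile salt export pump of the canalicular membrane (chromosome 2, 69076339 to 69180671 on the minus strand), had 184, 212 and 219 RPKM in WT at CT0 and 93.9, 88.9 and 88.4 at CT12. The KO livers had 276, 261 and 215 and 171, 205 and 209. Each genotype was lower at CT12 without overlap, but the KO fall of -0.36 did not pass (adjusted p = 0.11). The interaction was 0.81 (standard error 0.16, adjusted p = 0.029), and was not called without WT CT0 replicate 2 or 3, any 1 WT CT12 library, KO CT0 replicate 3, or KO CT12 replicate 2 or 3 (0.70 to 0.84, adjusted p = 0.06 to 0.086). It was the 1 called of 16 genes of bile acid synthesis and transport (1.49% of all genes), of which 4 rose with time in WT (3.71% of all genes) and 1 in KO (1.1%).

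Fga, the alpha chain of fibrinogen and 1 of 14 hepatocyte markers tested (chromosome 3, 82830075 to 82838036 on the plus strand), had 2573, 2088 and 2131 RPKM in WT at CT0 and 1408, 1287 and 1170.0 at CT12. Livers of KO mice had 1463, 2013 and 1943 and 3030.0, 1926 and 2199, with 1 low library at CT0 and 1 high library at CT12. The interaction of 1.20 (standard error 0.24, adjusted p = 0.032) was lost without any 1 of the 6 WT libraries, KO CT0 replicate 1 or 3, or KO CT12 replicate 3 (1.05 to 1.27, adjusted p = 0.056 to 0.087), and with quantile normalization.

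The lost rises were led by a pair of cytochromes P450. Cyp2a5, which hydroxylates coumarin (chromosome 7, 27620324 to 27628567 on the plus strand), had 88.6, 142 and 114 RPKM in WT at CT0 and 879, 622 and 745 at CT12. The KO libraries gave 55.1, 32.6 and 47.6 and 52.7, 48.5 and 45.9, below every WT library at either time. The rise in WT was 2.71 (standard error 0.20, adjusted p = 7.6e-06), the KO change 0.15 (adjusted p = 0.73) and the interaction -2.56 (standard error 0.29, adjusted p = 0.0011). Cyp2a4, a steroid hydroxylase, showed the same order at a lower level, with 56.9, 38.5 and 57.5 RPKM in WT at CT12 and 2.42, 3.39 and 2.6 in KO, and an interaction of -2.50 (adjusted p = 0.0019). The pair are close paralogs, so the division of reads between them is uncertain and they are not 2 independent results.

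Por, the reductase that passes electrons to microsomal cytochromes P450 (chromosome 5, 136145903 to 136211196 on the plus strand), had 40.1, 73.8 and 52.9 RPKM in WT at CT0 and 207, 171 and 206 at CT12. The KO livers had 47.1, 35.8 and 43.1 and 68.3, 46.4 and 47.4. The WT libraries at CT12 were above all others. The interaction of -1.49 (standard error 0.29, adjusted p = 0.027) was not called without WT CT0 replicate 1 or 3, WT CT12 replicate 1 or 3, KO CT0 replicate 1 or 3, or KO CT12 replicate 2 or 3 (-1.47 to -1.28, adjusted p = 0.051 to 0.074). Of 27 genes of the P450 and xenobiotic receptor list, 8 rose with time in WT (against 3.71% of all genes) and 1 in KO (1.1%). The 3 with a called interaction were Cyp2a5, Cyp2a4 and Por, against 1.49% of all genes.

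The lost rises also held Gys2 and Upp2. Gys2, the glycogen synthase of liver (chromosome 6, 142371133 to 142421629 on the minus strand), had 45.0, 44.1 and 52.4 RPKM in WT at CT0 and 157, 137 and 140.0 at CT12, and 54.8, 40.5 and 41.2 and 34.5, 41.4 and 40.2 in KO. Upp2, a uridine phosphorylase (chromosome 2, 58419709 to 58645382 on the plus strand), had 38.8, 51.9 and 63.0 and 372, 337 and 325 RPKM in WT, and 32.3, 27.8 and 42.5 and 45.7, 62.6 and 47.8 in KO. In both genes every WT library at CT12 was above the other 9 libraries. The KO change of Upp2 was 0.60, higher at CT12 without overlap, but did not pass (adjusted p = 0.11). With classes set by a size of 0.5, Upp2 kept a smaller rise in KO. Interactions were -1.82 (standard error 0.18, adjusted p = 0.00045) for Gys2 and -2.16 (standard error 0.26, adjusted p = 0.0019) for Upp2. With Ppp1r3c, Gys2 made 2 called of 23 tested genes of glucose and glycogen metabolism, with opposite signs, against 1.49% of all genes. The list had 6 rises and 3 falls with time in WT (3.71% and 7.88% of all genes), and 1 and 0 in KO (1.1% and 1.32%).

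In the NAD list, 2 of 18 tested genes were called, against 1.49% of all genes. Nampt, the rate-limiting enzyme of NAD salvage (chromosome 12, 33505200 to 33538234 on the plus strand), had 10.9, 11.3 and 11.2 RPKM in WT at CT0 and 48.2, 35.7 and 41.9 at CT12, and 13.6, 11.6 and 11.9 and 14.0, 15.1 and 15.6 in KO. Nmrk1, a nicotinamide riboside kinase that feeds NAD by another route (chromosome 19, 18706440 to 18726684 on the plus strand), had 6.67, 7.21 and 7.2 and 25.4, 24.2 and 23.4 RPKM in WT, and 11.6, 10.4 and 7.01 and 8.43, 9.63 and 8.79 in KO. The WT libraries at CT12 stood above the other 9 libraries in both. Their interactions were -1.56 (standard error 0.15, adjusted p = 0.00045) and -1.74 (standard error 0.20, adjusted p = 0.0012).

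Wee1, the kinase that delays entry into mitosis (chromosome 7, 117265864 to 117285626 on the plus strand), had 0.982, 0.894 and 1.01 RPKM in WT at CT0, from 33 to 36 reads, and 6.42, 7.19 and 7.22 at CT12. Its KO libraries had 3.35, 2.32 and 1.53 and then 1.64, 3.07 and 2.49, above WT at CT0 and below WT at CT12 without overlap, and the interaction was -2.0 (standard error 0.27, adjusted p = 0.0031). D0H4S114, also known as Nrep, had 29.4, 13.6 and 22.2 RPKM in WT at CT12 and 1.42, 3.29 and 2.0 in KO, with an interaction of -2.24 (adjusted p = 0.012). Gpcpd1, a glycerophosphocholine phosphodiesterase, had 16.7, 29.1 and 31.7 and 131, 73.7 and 85.9 RPKM in WT, and 15.3, 23.1 and 23.2 and 23.7, 23.4 and 23.7 in KO. Its interaction of -1.66 (adjusted p = 0.041) depended on single libraries. It was lost without WT CT0 replicate 1 or 2, WT CT12 replicate 1 or 3, KO CT0 replicate 2 or 3, or any 1 KO CT12 library (-1.77 to -1.38, adjusted p = 0.065 to 0.096).

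**Figure D3:**
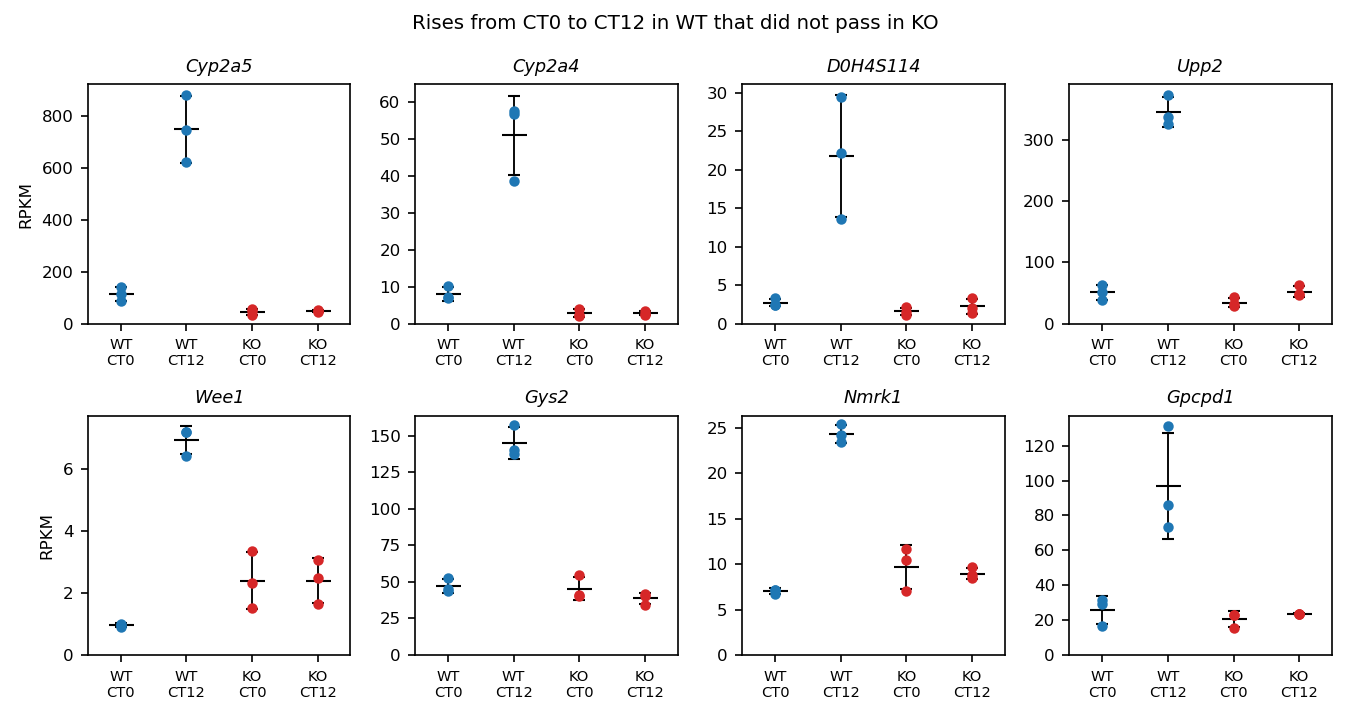
RPKM (vertical axes, from 0, with a scale of its own for each gene) of the 8 named lost rises in the 4 groups on the horizontal axes. Points are libraries, with WT in blue and KO in red, and bars are the mean and SD of 3 libraries. The WT libraries at CT12 are above the other 9 libraries in all 8 genes, which were picked by the size of the interaction. Over all genes tested, WT libraries at CT12 do not overlap WT at CT0 in 34.1% and KO at CT12 in 28.8%, in either direction.

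Elovl3 was the gene with the largest interaction of those tested and the clearest reversal. This elongase makes very long-chain fatty acids (chromosome 19, 46206387 to 46210184 on the plus strand). It had 84.5, 118 and 84.6 RPKM in WT at CT0 and 7.18, 7.31 and 7.13 at CT12. Livers of KO mice had 84.0, 97.6 and 85.9 at CT0, within the WT range or just under it, and 239, 295 and 185 at CT12. The WT change was -3.54 (standard error 0.16, adjusted p = 2.1e-07), the KO change 1.40 (standard error 0.16, adjusted p = 0.0021), so that KO exceeded WT by 4.85 at CT12 and differed by -0.09 at CT0 (adjusted p = 0.87). The interaction was 4.93 (standard error 0.23, adjusted p = 7.5e-07).

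Elovl3 had the opposite sign to most of its list. It was the 1 called member of 24 tested genes of fatty acid synthesis and elongation, against 1.49% of all genes. The median interaction of these 24 was -0.95, against 0.067 over all genes. The list's median time change was -0.10 in WT and -0.78 in KO. Without KO CT0 replicate 1, in which lipogenic genes were high, the median was -0.37 in KO and the median interaction -0.39, in a calculation added after the data were seen. In WT 4 of its genes rose and 3 fell (3.71% and 7.88% of all genes), and in KO 1 rose and 3 fell (1.1% and 1.32%).

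The other reversed genes changed less. Inmt, indolethylamine N-methyltransferase (chromosome 6, 55120620 to 55125037 on the minus strand), had 402, 418 and 432 RPKM in WT at CT0 and 769, 744 and 643 at CT12, and 427, 420.0 and 338 and 244, 236 and 297 in KO. Dirc2, which encodes a membrane protein of lysosomes (chromosome 16, 35694148 to 35769442 on the minus strand), had 6.27, 7.89 and 8.15 and 5.04, 5.04 and 4.62 RPKM in WT, and 5.83, 7.32 and 7.1 and 9.9, 9.48 and 10.4 in KO. In both the genotypes overlapped at CT0 and separated at CT12, with Inmt lower and Dirc2 higher in KO. The interactions were -1.39 (standard error 0.17, adjusted p = 0.0019) and 1.01 (standard error 0.16, adjusted p = 0.0074). Their KO changes of -0.61 (adjusted p = 0.024) and 0.50 (adjusted p = 0.038) passed narrowly, and without KO CT12 replicate 1 or replicate 2 the class held 1 gene in place of 3.

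Changes that passed the threshold in KO alone were 6 rises and 1 fall. Their WT estimates had the opposite sign and did not pass, at -0.73 to -0.02 for the rises and 0.30 for the fall. Cdkn1a, the cyclin-dependent kinase inhibitor p21 (chromosome 17, 29227924 to 29237667 on the plus strand), had 2.47, 1.32 and 1.8 RPKM in WT at CT0 and 0.227, 0.606 and 1.52 at CT12, the latter from 7, 17 and 39 reads. The KO libraries gave 4.71, 1.54 and 1.32 at CT0 and 12.8, 10.2 and 14.3 at CT12. The 3 KO libraries at CT12 were above the other 9. The rise in KO was 2.05 (standard error 0.33, adjusted p = 0.012), the change in WT -0.73 (adjusted p = 0.18) and the interaction 2.77 (standard error 0.47, adjusted p = 0.012). With classes set by a size of 0.5, Cdkn1a counted as reversed. With Wee1, of opposite sign, it made 2 called of 22 tested genes of the cell cycle and p53 response, against 1.49% of all genes.

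Klf9, a transcription factor induced by glucocorticoids (chromosome 19, 23215716 to 23241401 on the plus strand), had 17.8, 15.2 and 16.2 RPKM in WT at CT0 and 15.9, 15.7 and 16.8 at CT12, without a time change (-0.02). The KO livers had 9.42, 11.6 and 11.7 and 18.2, 18.1 and 18.2. It was below WT at CT0 (-0.55, adjusted p = 0.012) and differed by 0.16 at CT12 (adjusted p = 0.33), whereas the other 5 gained rises had a called difference at CT12 and none at CT0. Its interaction of 0.71 (adjusted p = 0.021) was not called with quantile normalization or cyclic loess normalization, nor without WT CT0 replicate 1 or 3, WT CT12 replicate 1 or 2, or KO CT12 replicate 2 or 3 (0.66 to 0.72, adjusted p = 0.051 to 0.059). In its list of glucocorticoid response and immediate early genes, 6 of 21 rose with time in WT (3.71% of all genes) and 5 in KO (1.1%), and Klf9 was the 1 called interaction (1.49%).

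The other gained rises were smaller. Spg20, which encodes spartin (chromosome 3, 54916030 to 54941244 on the plus strand), had 6.87, 6.87 and 6.19 RPKM in KO at CT0 and 10.6, 10.3 and 11.0 at CT12, and 8.04, 7.09 and 9.87 and 6.45, 6.83 and 6.38 in WT, with an interaction of 0.91 (adjusted p = 0.012). Rabggtb, a subunit of the Rab geranylgeranyl transferase (chromosome 3, 153570253 to 153575930 on the minus strand), had 25.7, 26.7 and 23.2 and 36.3, 33.8 and 36.4 RPKM in KO, and 27.7, 29.5 and 27.9 and 25.4, 24.7 and 19.8 in WT. Its interaction of 0.76 (adjusted p = 0.021) was lost without WT CT0 replicate 2, KO CT0 replicate 3 or KO CT12 replicate 3 (0.71 to 0.75, adjusted p = 0.053 to 0.068). In both genes KO at CT12 was above the other 9 libraries. WT was lower at CT12 without overlap, by -0.30 for Spg20 (adjusted p = 0.094) and -0.28 for Rabggtb (0.088), which did not pass.

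Cars, the cysteinyl-tRNA synthetase (chromosome 7, 150743135 to 150785995 on the minus strand), had 12.8, 8.07 and 8.68 RPKM in KO at CT0 and 14.7, 17.9 and 15.9 at CT12, and 13.2, 13.7 and 12.8 and 7.71, 10.4 and 10.3 in WT, with an interaction of 1.14 (adjusted p = 0.026). Btg3, of an antiproliferative family, had 1.52, 2.86 and 2.76 and 8.31, 7.35 and 4.8 RPKM in KO, and 2.75, 2.38 and 4.69 and 2.94, 2.0 and 2.02 in WT, with an interaction of 1.54 (adjusted p = 0.047). KO at CT12 was above the other 9 libraries in both. The WT change of Cars was -0.45 (adjusted p = 0.082), lower at CT12 without overlap, and that of Btg3 was -0.34 (0.4). The call of Cars was lost without any 1 WT CT0 library, WT CT12 replicate 1, KO CT0 replicate 2 or 3, or KO CT12 replicate 2 or 3 (1.01 to 1.16, adjusted p = 0.053 to 0.076). That of Btg3 was lost without any 1 library other than KO CT12 replicate 3 (1.32 to 1.69, adjusted p = 0.056 to 0.11), and its second row gave 0.92 (adjusted p = 0.098).

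The gained fall was Uox, urate oxidase of purine breakdown (chromosome 3, 146260041 to 146295269 on the plus strand). It had 1103, 934 and 1169 RPKM in WT at CT0 and 1473, 1231 and 1238 at CT12. Livers of KO mice had 1119, 1018 and 907 at CT0 and 538, 627 and 673 at CT12, below all the other libraries. The KO change was -0.73 (standard error 0.12, adjusted p = 0.016), the WT change 0.30 (adjusted p = 0.15), and the interaction -1.03 (standard error 0.18, adjusted p = 0.013). The gained class shrank most when libraries were left out, from 7 genes to 2 without KO CT12 replicate 1, 3 without KO CT12 replicate 2, and 4 without WT CT0 replicate 2 or KO CT0 replicate 3.

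**Figure D4:**
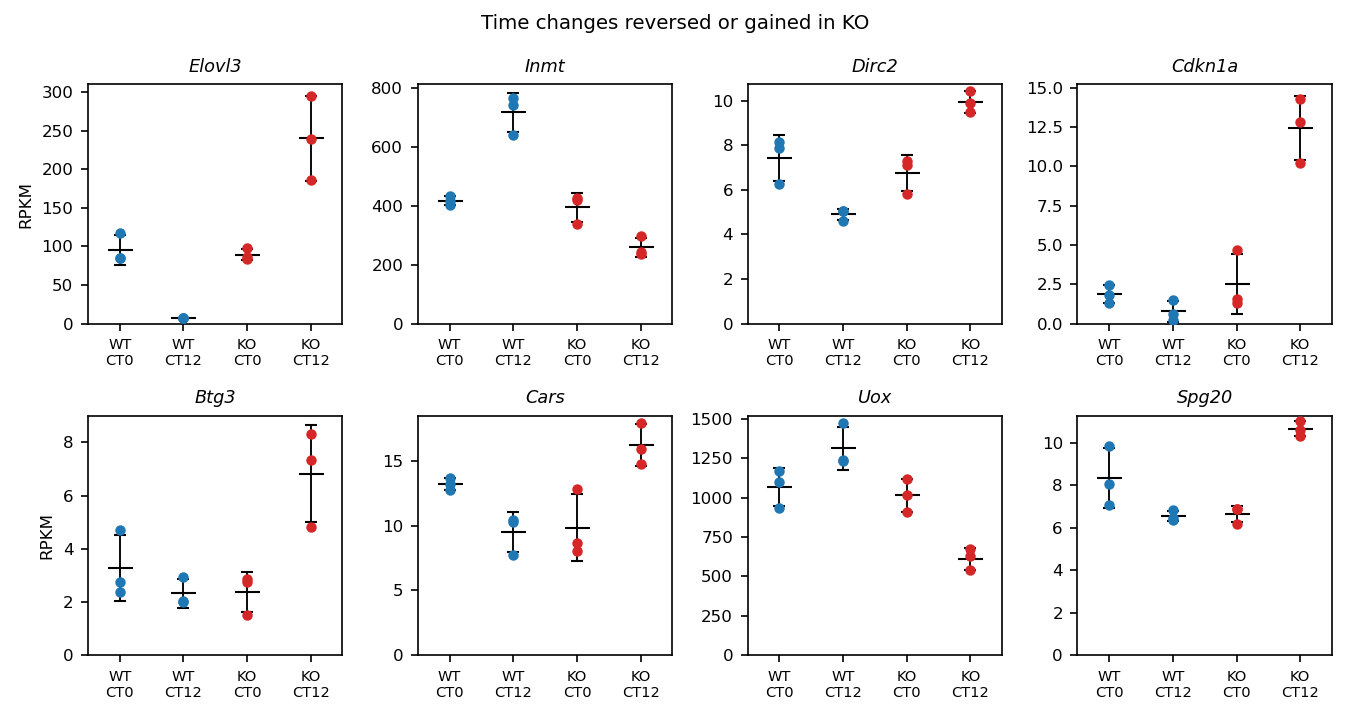
RPKM (vertical axes, from 0, with a scale of its own for each gene) of the 3 reversed genes and 5 of the 7 gained genes in the 4 groups on the horizontal axes. Points are libraries, with WT in blue and KO in red, and bars are the mean and SD of 3 libraries. KO at CT12 is above the other 9 libraries for Elovl3, Dirc2, Cdkn1a, Btg3, Cars and Spg20, and below them for Inmt and Uox. Over all genes tested, KO libraries at CT12 do not overlap KO at CT0 in 23.2% and WT at CT12 in 28.8%, in either direction.

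A time change of the same sign but smaller size remained in KO for 6 genes. Chka, choline kinase of phosphatidylcholine synthesis (chromosome 19, 3851773 to 3894369 on the plus strand), had 38.2, 50.6 and 41.1 RPKM in WT at CT0 and 6.03, 6.33 and 6.82 at CT12, and 51.6, 45.6 and 56.0 and 38.2, 26.2 and 30.9 in KO. Its fall of -2.58 in WT was -0.68 in KO, with an interaction of 1.90 (adjusted p = 0.00068). Ethe1, a sulfur dioxygenase of mitochondria, fell from 34.7, 42.5 and 48.6 RPKM to 12.2, 9.68 and 10.6 in WT and from 51.8, 46.6 and 56.0 to 27.7, 31.4 and 28.7 in KO, with an interaction of 1.06 (adjusted p = 0.012). In these genes KO at CT12 lay between the 2 WT groups or overlapped WT at CT0, and never reached WT at CT12.

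St5 fell from 13.5, 13.5 and 13.7 RPKM to 3.45, 3.65 and 3.8 in WT and from 18.7, 18.0 and 17.1 to 8.63, 9.03 and 8.82 in KO, with an interaction of 0.71 (adjusted p = 0.0067). Pnp, purine nucleoside phosphorylase, fell from 61.4, 64.9 and 63.1 RPKM to 28.4, 26.6 and 29.6 in WT and from 68.3, 68.8 and 67.9 to 55.1, 47.7 and 54.5 in KO, with an interaction of 0.76 (adjusted p = 0.0057). KO was above WT at both times in both genes, and more so at CT12. Usp2, a deubiquitinating enzyme, rose from 0.463, 0.566 and 0.239 RPKM to 13.3, 16.4 and 13.7 in WT and from 0.993, 0.662 and 0 to 5.41, 4.57 and 4.09 in KO. Its interaction of -1.52 (adjusted p = 0.029) was not called with a pseudocount of 0.1, nor without any 1 WT library, KO CT0 replicate 2, or KO CT12 replicate 2 or 3 (-1.59 to -1.42, adjusted p = 0.06 to 0.075).

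Dio1, the deiodinase that makes active thyroid hormone (chromosome 4, 106964070 to 106979774 on the minus strand), was the 1 gene with a larger change in KO. It had 36.2, 37.7 and 39.1 RPKM in WT at CT0 and 44.5, 63.5 and 64.4 at CT12. The KO libraries gave 3.9, 3.9 and 4.19 and 12.4, 19.1 and 15.5, below every WT library at either time. The rise was 1.72 in KO and 0.58 in WT on the log2 scale, although WT gained more RPKM. The interaction of 1.14 (standard error 0.22, adjusted p = 0.024) came from a row of 396 bases, and the second row gave 0.97 (adjusted p = 0.064). It was lost without any 1 WT CT0 library, KO CT0 replicate 2 or 3, or KO CT12 replicate 2 or 3 (1.0 to 1.17, adjusted p = 0.052 to 0.068).

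In 4 genes the interaction was called and neither time change was. Adh1, the main alcohol dehydrogenase of liver, had 1202, 1263 and 1261 RPKM in WT at CT0 and 1609, 1405 and 1613 at CT12, and 1408, 1312 and 1236 and 1047, 919.5 and 1088 in KO, so the estimates were 0.31 and -0.37. Tpst2, a tyrosylprotein sulfotransferase, had estimates of -0.37 in WT and 0.37 in KO. Aasdhppt, which activates acyl carrier proteins, had -0.30 and 0.31, and Abtb1 had -0.30 and 0.29. The 4 interactions were -0.68 (adjusted p = 0.027), 0.74 (0.04), 0.62 (0.0498) and 0.58 (0.049).

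Of these 4, Tpst2, Aasdhppt and Abtb1 were among the least stable of the named calls, lost under 15, 16 and 16 alternatives. Adh1 was lost under 9. Tpst2, Aasdhppt and Abtb1 were not called with quantile normalization. The call of Adh1 was lost without any 1 WT CT0 library, WT CT12 replicate 1 or 3, KO CT0 replicate 1 or 2, or KO CT12 replicate 2 (-0.70 to -0.61, adjusted p = 0.051 to 0.076). For Aasdhppt it held without KO CT12 replicate 1 (otherwise 0.55 to 0.68, adjusted p = 0.059 to 0.14). For Abtb1 it held without KO CT0 replicate 1 (otherwise 0.54 to 0.64, adjusted p = 0.06 to 0.14). The call of Tpst2 held without WT CT12 replicate 2 or KO CT0 replicate 3 (otherwise 0.66 to 0.76, adjusted p = 0.071 to 0.1).

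Promoters were searched because the E-box, the D-box and the ROR element are the sites of the factors named above. RefSeq sequences of GRCm38.p6, 250 bases before to 50 after a gene's start, were matched to 7819 of the tested genes and 119 of the called ones. The motifs were CACGTG for the E-box, TTANNTAA for the D-box and TAGGTCA for the core of the ROR element, on both strands, and none of the 3 contains another. The ROR element core was in the promoters of 6 of 72 lost falls (8.3%) and 0 of 25 lost rises, against 2.7% of all 7819 genes. The E-box was in 9 lost falls (12.5%) and 2 lost rises (8.0%), against 12.0% of all, and the D-box in 2 (2.8%) and 3 (12.0%), against 4.9%. These are counts with no test, and a match is not a bound site.

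Promoter stretches of 5 lost falls with the ROR element core are shown because this motif was in 8.3% of that class and 2.7% of all genes. The core or its reverse complement is in capitals, each stretch is read 5′ to 3′ in the sense of the gene and ends before its start, and coordinates are of GRCm38.p6.
Abcb11 (chr2:69342626-69342712, minus strand): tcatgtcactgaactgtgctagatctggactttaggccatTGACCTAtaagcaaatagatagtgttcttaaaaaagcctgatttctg
Leo1 (chr9:75441421-75441507, plus strand): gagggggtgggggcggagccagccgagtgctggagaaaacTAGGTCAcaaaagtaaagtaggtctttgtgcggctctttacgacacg
Golga2 (chr2:32288156-32288242, plus strand): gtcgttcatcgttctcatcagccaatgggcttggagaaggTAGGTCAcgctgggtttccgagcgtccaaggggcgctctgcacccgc
Tjp3 (chr10:81291743-81291829, minus strand): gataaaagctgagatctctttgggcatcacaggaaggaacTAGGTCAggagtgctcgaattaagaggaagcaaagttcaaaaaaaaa
Dpp9 (chr17:56219060-56219139, minus strand): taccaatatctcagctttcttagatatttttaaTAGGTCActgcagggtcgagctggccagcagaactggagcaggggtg
Besides Abcb11, these genes were named for the motif after their values were seen. Their falls in WT were -0.97 for Leo1, -0.55 for Golga2, -1.76 for Tjp3 and -0.85 for Dpp9, and their interactions were 1.09, 0.85, 1.47 and 0.74. The motif began 56 bases before the start in Abcb11, 63 in Leo1, 130 in Golga2, 208 in Tjp3 and 217 in Dpp9.

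Other named genes held a match to the E-box or D-box pattern, and some are shown likewise with the match in capitals. Not shown are matches to the D-box pattern in Per3 and Rabggtb and to the E-box in Adh1. Tjp3, shown above, also held an E-box 55 bases before the start. The lost falls Ppp1r3c and Cbs matched the E-box. The lost fall Insig2 and the gained fall Uox matched TTANNTAA, whose middle bases may be any, so a match need not be a D-box.
Ppp1r3c (chr19:36736663-36736748, minus strand): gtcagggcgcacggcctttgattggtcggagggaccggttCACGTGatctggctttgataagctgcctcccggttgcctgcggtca
Cbs (chr17:31637389-31637455, minus strand): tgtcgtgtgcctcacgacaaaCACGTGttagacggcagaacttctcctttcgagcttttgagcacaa
Insig2 (chr1:121332787-121332839, minus strand): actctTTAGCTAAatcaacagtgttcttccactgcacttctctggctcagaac
Uox (chr3:146597074-146597148, plus strand): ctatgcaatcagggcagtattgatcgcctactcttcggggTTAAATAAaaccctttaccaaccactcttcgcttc
Genes of 1 class thus differed in the motif present.

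Gene lists without a called interaction are given by the largest estimates, none of which passed in limma. In phase II conjugation (28 tested), the sulfotransferase Sult1e1 had 47.8 ± 26.1 RPKM at CT0 and 5.8 ± 5.2 at CT12 in the KO libraries (SD, n = 3), with an interaction of -2.06 (adjusted p = 0.36), and Sult1d1 had -0.83 (0.15). In fatty acid oxidation, the thioesterase Acot3 had -1.70 (0.17) and the kinase Pdk4 0.68 (0.45). In iron and heme metabolism (19 tested), Alas1, the first enzyme of heme synthesis, went from 36.0 ± 10.5 to 572 ± 167 RPKM (SD, n = 3) in WT and from 51.6 ± 27.5 to 265 ± 107 (SD, n = 3) in KO, with -1.55 (0.25), and the iron hormone Hamp had 1.18 (0.3). Standard errors of these genes ran from 0.24 for Sult1d1 to 0.88 for Sult1e1. Called genes such as Fga (0.24) and Cdkn1a (0.47) lay within that span.

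Cytosolic chaperones (23 tested) had 5 rises with time in WT (3.71% of all genes) and 0 in KO (1.1%), without a called interaction. The largest estimates were -0.99 for the immunophilin Fkbp5 (adjusted p = 0.34) and 0.63 for Hspb1 (0.58). In the endoplasmic reticulum list (24 tested) they were 1.0 for Sdf2l1 (0.36) and 0.45 for Creld2 (0.86). The growth hormone list (20 tested) had 1.46 for the male-typical Cyp4a12a (0.36) and 1.32 for the repressor Bcl6 (0.63). Cytosolic ribosomal proteins (28 tested) lay close together, with 0.33 for Rps19 (0.36) and 0.28 for Rps20 (0.44) the largest. Transcripts of the mitochondrial genome, 13 in the list, had no tested row.

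**Figure D5:**
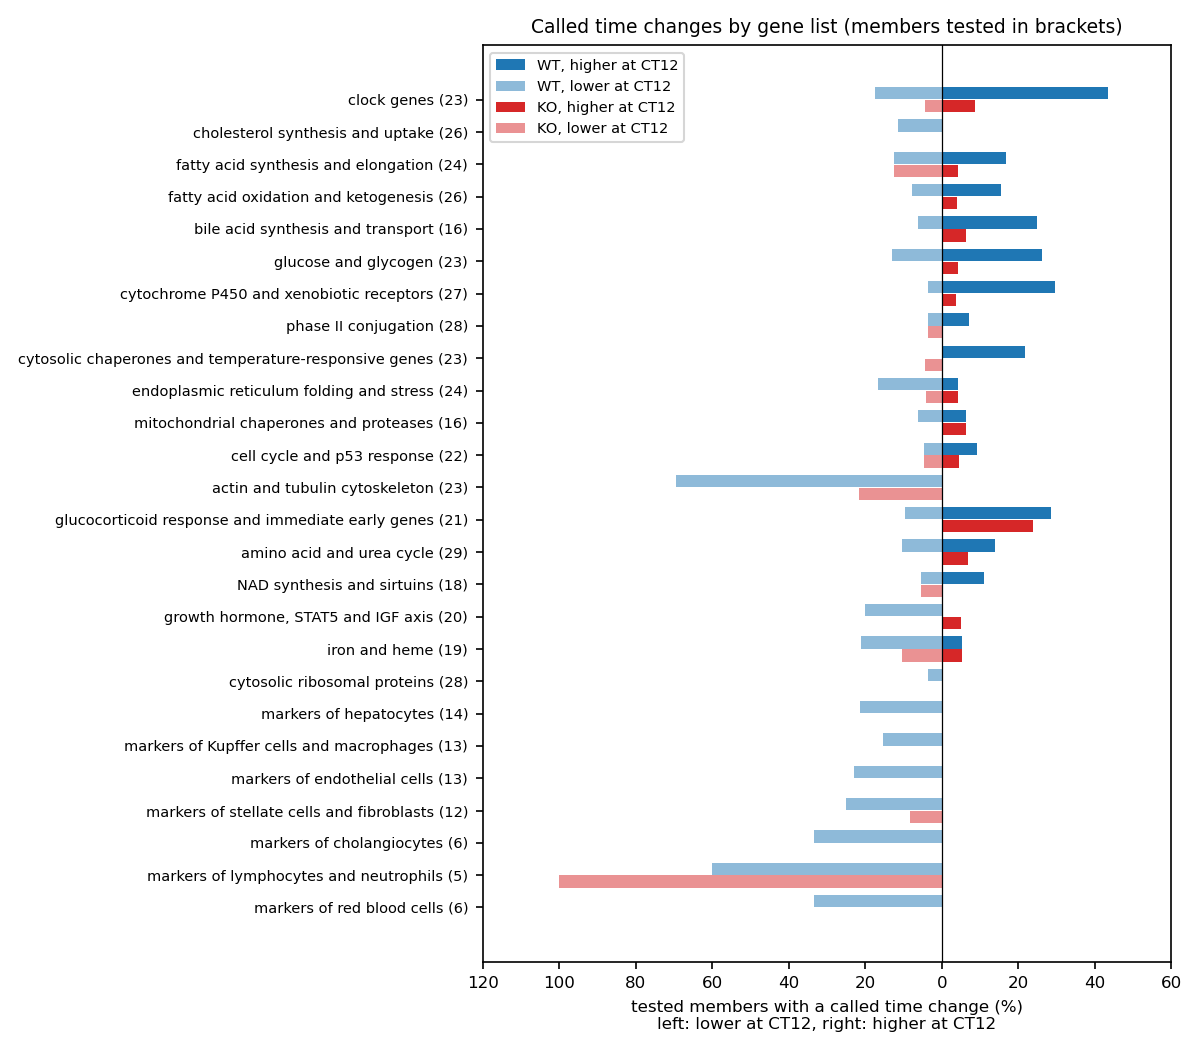
Share of the tested members of each gene list (in %, horizontal axis) with a called time change, to the right for higher and to the left for lower at CT12, in WT (blue) and KO (red). Numbers in brackets are the members tested. The KO bars are the shorter ones in most lists, with the markers of lymphocytes and neutrophils (5 of 5 lower in KO, 3 of 5 in WT) as an exception.

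The 14 hepatocyte markers had far higher sums than the markers of other cells in every library, with 75700 to 83860 RPKM in WT at CT0 and 62730 to 73850 at CT12, and 59250 to 69070 and 55570 to 62580 in KO. They were lower at CT12 in WT without overlap, overlapped between times in KO, and were lower in KO than in WT at both times without overlap. In whole liver, fewer cells of a type and less RNA per cell cannot be told apart. Markers of other liver cells were tested for 55 of 73 genes, since lymphocyte markers such as Cd3e, Cd4 and Cd8a did not reach the minimum level, and none had a called interaction in limma. Their median time change was -0.62 in WT and -0.38 in KO, with 15 falls in WT (7.88% of all genes) and 6 in KO (1.32%), both above the background, and the median interaction was 0.2. The summed level of 13 Kupffer cell markers was 271 to 352 RPKM in WT at CT0 and 165 to 246 at CT12, and 256 to 350.1 and 171 to 303 in KO. The 13 endothelial markers summed to 183 to 217 and 134 to 148 RPKM in WT, and to 209 to 218 and 103 to 226 in KO. Both lists were lower at CT12 in WT without overlap, and overlapped between times in KO.

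The 12 markers of stellate cells summed to 165 to 227 RPKM in WT at CT0 and 124 to 143 at CT12, and to 206 to 245 and 149 to 194 in KO. The 6 cholangiocyte markers summed to 52.3 to 68.8 and 29.1 to 51.8 RPKM in WT, and to 97.1 to 155 and 90.5 to 127 in KO. The 5 markers of lymphocytes and neutrophils had 30.0 to 107 and 5.84 to 7.93 RPKM in WT, and 98.5 to 208 and 17.0 to 42.8 in KO. The 6 red cell markers had 160 to 381 and 108 to 191 RPKM in WT, and 213 to 224 and 246 to 308 in KO. In WT the sums of hepatocytes, Kupffer cells, endothelium, stellate cells, cholangiocytes, and lymphocytes and neutrophils were lower at CT12 without overlap, and those of red cells overlapped. In KO the sums of stellate cells and of lymphocytes and neutrophils were also lower at CT12 without overlap, that of red cells was higher without overlap, and the others overlapped. Their part in the calls was not tested.

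Single markers with large estimates are given for each list, and none was called. They were 0.66 for Marco (adjusted p = 0.55) and 0.42 for Fcgr1 (0.65) in Kupffer cells, 0.39 for Stab2 (0.58) and 0.37 for Oit3 (0.71) in endothelium, and -0.68 for Lrat (0.59) and -0.50 for Col1a1 (0.74) in stellate cells. They were 0.41 for Spp1 (0.66) in cholangiocytes, -0.71 for Mpo (0.61) and -0.62 for Ngp (0.76) in neutrophils, and 1.53 for Hbb-b2 (0.11) and 1.29 for Hbb-b1 (0.29) in red cells. The red cell markers had the largest median interaction of these lists, 1.07 over 6 genes, which was 0.74 without WT CT12 replicate 1, 0.76 without WT CT0 replicate 1 and 1.41 without WT CT0 replicate 3.

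The choice of transcript row bore on the members in some cases. A second tested row was present for 94 of the 161 called genes, and its interaction had the same sign in 94 and was itself called in 77. Of 156 called genes with a known transcript length, 17 rows were shorter than 600 bases. Exons of another gene overlapped the rows of 30 called genes, and the libraries carry no strand, so reads of either gene cannot be told apart there. The mean was at least 1 RPKM in all 4 groups for 138 of the 161.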

How the data were processed

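From mouse liver RNA, 12 libraries had been made with the TruSeq RNA Sample Prep Kit v2, which does not mark strand. The authors deposited 1 table per library with RPKM values for 46585 transcript rows, each with a symbol. The submitters' processing notes name TopHat2, bedtools 2.19.1 and mm9. The counting rule and annotation release are not given in the sources used here. How reads of several transcripts or genes were divided is therefore unknown, and a gene's rows may not be independent.

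Each of 22322 symbols was represented by its row of highest mean RPKM. Lengths and positions came from GENCODE vM1 on NCBIM37 (mm9), which held 95.5% of the rows. Depth was recovered from low values, which were whole reads within 0.05 for nearly all. Group means of log2(RPKM + 1) were modelled over all libraries with limma 3.58.1 in R 4.3.3 (lmFit, eBayes with trend), and p-values were adjusted by Benjamini-Hochberg over 10799 genes. A pseudocount of 1 understates changes of low genes. RPKM values are not counts, so no count model was used. The script was tested on simulated data. Python 3.11.15 with pandas 2.3.3 served for motif counts, and matplotlib 3.10.9 for figures.

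The members, gene lists and tests were chosen with earlier results of these data known. Genes were named by rule: the largest interactions, up to 8 for lost rises and for lost falls and 5 in other classes, unnamed gene models apart, up to 4 called members of each list or, with none called, 2 members by size, and at most 4 clock genes including Arntl. Some genes that fall under the rule are not reported here. Alternatives were a pseudocount of 0.1, 2 other filters, quantile and cyclic loess normalization, sums over rows, the second row, an unmoderated test, a size limit, classes by size, the replicate number as a block, and leaving out each library.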

Additional observations from a re-analysis of the deposited data

Results flagged for a closer look

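The interaction passed the threshold for 45 of the named genes, which means that the difference between KO and WT at CT12 was unlike that at CT0 (limma, adjusted p under 0.05). Single outlying libraries were not tested for in groups of 3, and each library was left out in turn instead. All sizes are log2 differences of differences, and the genes were picked in part by this size.

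Positive terms for lost falls were 2.85 for Insig2, 2.83 for Tubb2a, 2.38 for Clpx, 2.20 for Crot, 2.08 for Spon2, 2.07 for Ppp1r3c, 1.87 for Avpr1a, 1.84 for Ndrg1, 1.20 for Fga, 1.08 for Cbs and 0.81 for Abcb11. Negative terms for lost rises were -2.56 for Cyp2a5, -2.50 for Cyp2a4, -2.24 for D0H4S114, -2.16 for Upp2, -2.0 for Wee1, -1.82 for Gys2, -1.74 for Nmrk1, -1.66 for Gpcpd1, -1.56 for Nampt and -1.49 for Por.

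Reversed changes had 4.93 for Elovl3, 1.01 for Dirc2 and -1.39 for Inmt. Gained changes had 2.77 for Cdkn1a, 1.54 for Btg3, 1.14 for Cars, 0.91 for Spg20, 0.76 for Rabggtb, 0.71 for Klf9 and -1.03 for Uox. Smaller changes of the same sign had 1.90 for Chka, 1.06 for Ethe1, 0.76 for Pnp, 0.71 for St5 and -1.52 for Usp2, and the larger change of Dio1 had 1.14. Where neither change passed, the terms were 0.74 for Tpst2, 0.62 for Aasdhppt, 0.58 for Abtb1 and -0.68 for Adh1. The clock genes had -3.11 for Gm129, 2.50 for Arntl, -2.41 for Dbp and -2.19 for Per3.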

How the results depend on the processing

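Of the 45 named calls, 29 held under every alternative run for them, 16 were lost under at least 1, and 0 changed sign. Of 26 named genes without a call, 6 passed under at least 1 alternative. The interaction of Creld2 changed sign to -0.40 without WT CT0 replicate 1 and was 0.96 without WT CT0 replicate 3. The cause of these shifts was not tested.

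The 161 interaction calls (116 positive, 45 negative) became 94 (63 positive) in the second transcript row, where 5960 genes were tested, 1323 (951 and 372) with an unmoderated model and unadjusted p-values, and 89 (60 and 29) with a size of at least 1. The 130 lost changes became 74, 695 and 69 in the same order. The 3 reversed changes became 0 in the second row, but none of these 3 genes has a second row, so that count says nothing of them. They became 79 with unadjusted p-values. With classes set by a size of 0.5 they became 5, with Crot and Cdkn1a added. The 7 gained changes became 338 with unadjusted p-values and 4 with the size limit. Leaving out 1 library gave 87 to 146 calls, 55 to 106 positive and 26 to 42 negative, with 69 to 117 lost, 1 to 3 reversed and 2 to 8 gained changes. The fits with 1 library less have fewer degrees of freedom, and a group of 2 is assumed to vary like the others.

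Replicate numbers showed no general pairing of the libraries, which groups of 3 cannot exclude. Deviations from the group means had r of -0.066 to 0.139 over 18 pairs with the same number and -0.188 to 0.114 over 36 pairs with different numbers. The 2 highest, 0.139 and 0.129, were pairs of WT and KO at CT12 with the same number. With the replicate number as a block, 128 interactions were called. A pseudocount of 0.1 (160 calls), no filter (120), a mean of 1 RPKM over all libraries (158), quantile (144) and cyclic loess normalization (148) and sums over rows (150) stayed within 1.5 times of the count. At 11460000 to 19020000 reads per library, genes with few reads in a group, such as Gm129 and Cdkn1a, have the least certain sizes.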

Other observations

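Genes of fatty acid synthesis had large negative estimates that did not pass, and the following were picked after their values were seen. Thrsp, a regulator of lipogenesis, had 86.1, 59.5 and 72.5 RPKM in WT at CT0 and 348, 505 and 248 at CT12. The KO libraries had 912, 82.9 and 133 at CT0 and 105, 45.1 and 46.8 at CT12. The interaction of -4.09 (standard error 0.96, limma adjusted p = 0.065) was the second largest in size of all genes tested and was not called, and KO CT0 replicate 1 was far above the other libraries of its group, as it was for Elovl6. Elovl6, which elongates palmitate, had 185, 16.5 and 21.8 RPKM in KO at CT0 and 7.56, 5.15 and 6.79 at CT12, against 16.7, 12.6 and 19.5 and 29.4, 51.5 and 14.7 in WT, with -3.28 (adjusted p = 0.17). Fasn, the fatty acid synthase, had -1.65 (0.47), Acly, which supplies acetyl-CoA, -1.14 (0.58), and Srebf1, the sterol and lipid regulator, -1.28 (0.059). For Srebf1 the fall with time in KO of -1.25 passed (adjusted p = 0.013) and the change in WT of 0.03 did not (0.95), but the interaction was not called.

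Among other tubulins, Tubb5 had a positive estimate that missed the threshold. It had 33.1, 27.6 and 19.0 RPKM in WT at CT0 and 8.54, 12.2 and 12.4 at CT12, and 21.6, 16.3 and 23.8 and 18.2, 19.8 and 22.7 in KO, with an interaction of 1.16 (limma adjusted p = 0.076). Tuba1a fell in both genotypes, with changes of -0.97 in WT and -0.86 in KO, and its interaction was 0.11 (adjusted p = 0.91).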
